A study of Arabidopsis thaliana with 6 samples.

Results

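WRKY and NAC proteins are 2 families of transcription factors of plants. The genes described here were chosen by name: a probe set belonged if the platform's gene table gave it 1 Arabidopsis gene, that gene's symbol was WRKY or NAC followed by a number, and it had a value on all arrays. This gave 7 of the 19578 probe sets tested, namely 6 WRKY genes (WRKY6, WRKY20, WRKY22, WRKY42, WRKY47 and WRKY53) and the NAC gene NAC014, each with 1 probe set. The gene names used hold 67 WRKY symbols and 81 NAC symbols of this form, so the 7 are a small sample of the WRKY genes and a single gene of the NAC family. Genes of either family that were not readable by name are not analysed here.

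The RNA came from shoots of Brassica oleracea var. alboglabra, line A12dH, and was hybridised to Affymetrix ATH1 arrays made for Arabidopsis thaliana, in a study of phosphate starvation. All plants were grown in compost with a 16 h day at 22 °C and watered with deionised water, per the labels, which give neither the age of the plants nor how phosphate was withheld. There were 3 arrays from phosphate-starved (P-starved) and 3 from nutrient-replete (replete) shoots, numbered 1 to 3 in each group. Nothing in the labels says whether the 3 were grown or harvested separately, and the p-values measure only how these samples vary, which may be technical in part. The arrays were made for another species, and each name stands for the Arabidopsis gene its probes were designed for, whatever copies of it Brassica carries.

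WRKY factors carry a DNA-binding domain named after its amino acids and bind the W-box, a short element of many promoters of defence and senescence genes. In Arabidopsis some of them also act in phosphate supply, through genes that load phosphate into the xylem or take it up. NAC factors share an N-terminal DNA-binding domain and act in organ boundaries, secondary walls, senescence and stress. Transcripts of many WRKY genes are known to change quickly under stress.

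The replicate 1 array of each group lists 22810 probe sets, and the other 4 arrays list 19642 of these. These 2 kinds of array are called processing sets, the first being the replicate 1 arrays and the second those of replicates 2 and 3. Log2 signals correlated with r of 0.903 to 0.927 across probe sets within a set and of 0.608 to 0.633 between sets, so the differences of the WRKY genes and NAC014 are also given within each set. Over all tested probe sets the median signal lay at 67.1 and 67.8 in the first set and at 43.8 to 46.4 in the second. Of the 4 leaf genes included as a check on shoot tissue, LHCB4.1, PRK and SBPASE had signals between 588 and 5089 on the 6 arrays. Each of them was brighter on both replicate 1 arrays than on the other 4, SBPASE at 3497 and 5089 against 588 to 854. PSBY had 490 and 522 in the first set and 17.2 to 74.5 in the second. The root marker PYK10 had 83.2 and 63.7 in the first set and 63.9 to 134 in the second. On each array of the second set PYK10 was the brighter of these 2 probe sets.

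Neither the WRKY genes nor NAC014 passed the test for a difference between P-starved and replete shoots. WRKY53 and WRKY42 had higher values in P-starved shoots, with log2 differences of 0.44 ± 0.31 and 0.30 ± 0.21 (SE, 3 arrays per group). WRKY22, WRKY20, WRKY47 and NAC014 had lower values, at -0.52 ± 0.45, -0.40 ± 0.23, -0.25 ± 0.23 and -0.19 ± 0.18, and WRKY6 was at -0.04 ± 0.10. These are differences of log2(signal + 16), P-starved minus replete, from limma with the processing set as a block, and on this scale the change of dim probe sets is understated. With Benjamini-Hochberg adjustment over all probe sets limma called 0 of 7 members, and 0% of all probe sets in either direction. At an unadjusted p under 0.05 it took 0 of 7 as well, where 530 probe sets (2.71%) were higher and 627 (3.20%) lower.

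The signals were low for most of these genes. Over the 6 arrays 6 of 7 lay under a signal of 16 on at least 1 array, against 52.6% of all probe sets, and 1 of 7, WRKY6, lay there on all of them, against 8.57%. No detection calls were used, so a low signal is not read as presence or absence of a transcript. The shoots are a mixture of cells, in which fewer cells of a type and less RNA per cell cannot be told apart.

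WRKY20, a factor of the group with a pair of WRKY domains, was the brightest member on every array and the only one with a mean signal above 100 in both groups, as 29.3% of all probe sets had. Its signal was 91.8, 154 and 93.5 on P-starved replicates 1 to 3 and 137, 151 and 163 on the replete ones. On the arrays of replicates 1 and 3 the P-starved value was the lower one, while P-starved replicate 2 lay inside the replete range, so that the groups overlapped. The means were 113 ± 35.5 (SD, n = 3) and 150 ± 12.8. In the first set the log2 difference was -0.51 and in the second -0.34, and its 95% interval over all arrays ran from -0.97 to 0.18 (limma's adjusted p 0.788). It was -0.59 without P-starved replicate 2 and -0.23 without P-starved replicate 3. Of the 7 members it had the smallest p, at rank 3385 of the 19578 probe sets.

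WRKY53, a regulator of the onset of leaf senescence in Arabidopsis, had the largest positive difference of the 7. Its signal was 57.9, 27.0 and 18.9 on P-starved replicates 1 to 3 and 34.5, 5.90 and 24.3 on the replete ones. The P-starved array was the higher one at replicates 1 and 2, and P-starved replicate 3 was below replete replicate 3. The first set gave a log2 difference of 0.55 and the second 0.38, with an interval of -0.33 to 1.20 over all arrays and a limma adjusted p of 0.789. On the replete side replicates 2 and 3 stood 0.88 apart on the log2 scale, which is more than the difference between the groups. Without replete replicate 2, the dimmest of the 6, the difference was 0.20.

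WRKY22 is known in Arabidopsis from immune signalling by the flagellin receptor and from dark-induced senescence. Its signal was 68.0, 9.30 and 11.8 on P-starved replicates 1 to 3 and 70.0, 11.0 and 58.8 on the replete ones. Replete replicate 3 stood apart from the other 3 arrays of its processing set and near the replicate 1 arrays. At all 3 replicate numbers the P-starved array was the lower one, narrowly at replicates 1 and 2. No other member had 1 sign at all of them, but this rests on the numbering. P-starved replicate 3 was above replete replicate 2, and the numbers were not shown to pair these arrays. The size of the log2 difference, -0.52, rested on replete replicate 3: it was -0.03 in the first set, -0.76 in the second and -0.03 over all arrays but replete replicate 3. The gap between the 2 replete arrays of this set was 1.47 on the log2 scale, against 0.14 between the P-starved ones. The interval over all arrays, -1.63 to 0.60, was the widest of the 7 (limma's adjusted p 0.802).

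**Figure D1:**
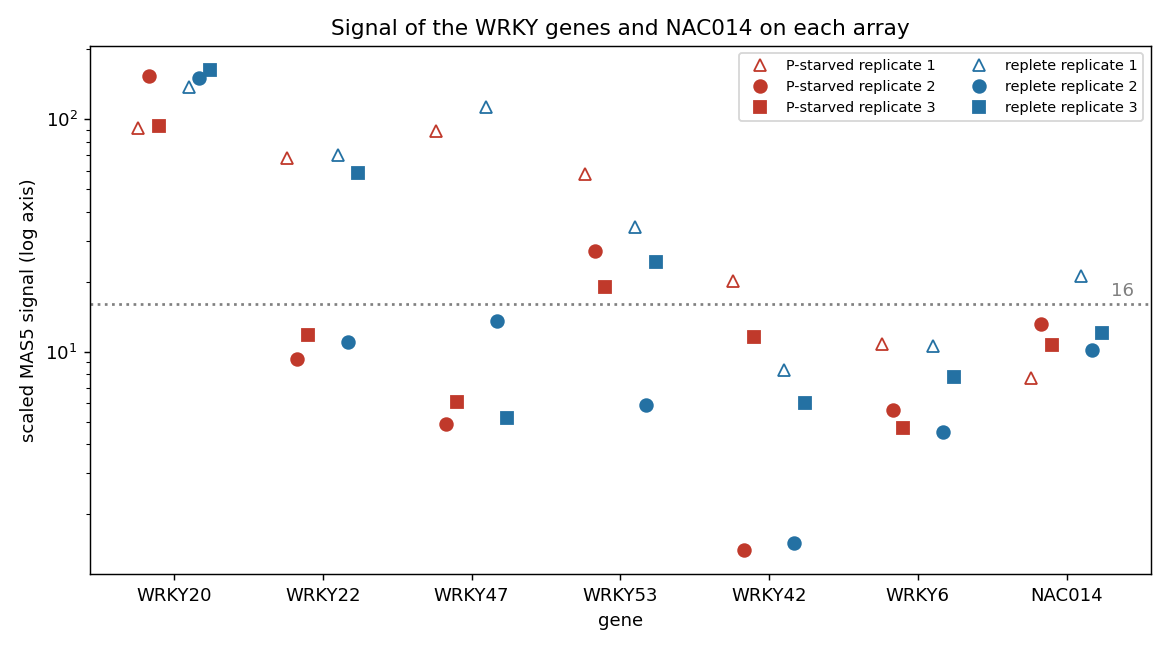
Scaled MAS5 signal (log axis) of the 6 WRKY genes and NAC014 on each of the 6 arrays, with P-starved arrays in red, replete arrays in blue, open triangles for replicate 1 and filled marks for replicates 2 and 3; the dotted line is a signal of 16. WRKY20 lies between 91.8 and 163 on all arrays, WRKY47 is bright on the replicate 1 arrays alone, and the P-starved and replete marks overlap for every gene.

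WRKY6, WRKY42 and WRKY47 belong to 1 subgroup of the family by the structure of their WRKY domain. In Arabidopsis WRKY6 and WRKY42 repress PHO1, the gene of the protein that exports phosphate to the xylem, and WRKY42 also activates the phosphate transporter gene PHT1;1. None of the 14 phosphate genes listed as targets or partners of WRKY factors, PHO1 and PHT1;1 among them, could be read by name on the 6 arrays. The values of the 2 factors could therefore not be set beside those of their targets.

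The signal of WRKY42 was 20.1, 1.40 and 11.6 on P-starved replicates 1 to 3 and 8.30, 1.5 and 6.00 on the replete ones. It was above 16 on P-starved replicate 1 alone, and both replicate 2 arrays lay near 0. The P-starved array was higher at replicates 1 and 3, by 0.57 on the log2 scale on the replicate 1 arrays, and the difference was 0.16 on the replicate 2 and 3 arrays. The 2 P-starved arrays of the second set were 0.67 apart, so this gene's difference was smaller than the spread between replicates (interval -0.24 to 0.83, limma's adjusted p 0.790). It was 0.15 without P-starved replicate 3 and 0.53 without P-starved replicate 2.

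WRKY6 was dim throughout, with 10.8, 5.60 and 4.70 on P-starved replicates 1 to 3 and 10.6, 4.50 and 7.80 on the replete ones. The groups overlapped almost wholly, and the log2 differences in the first and second set were 0.01 and -0.06. The interval of -0.28 to 0.20 was the narrowest of the 7. On this scale a signal so far below the offset of 16 can move little, so the narrow interval bounds the array value and not the transcript.

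WRKY47 had a signal of 88.8, 4.90 and 6.10 on P-starved replicates 1 to 3 and of 113, 13.6 and 5.20 on the replete ones. It was bright on both replicate 1 arrays and under 16 on the other 4, whatever the phosphate supply. Its group difference in the first set was -0.30 and in the second -0.22, with an interval of -0.82 to 0.32 (limma's adjusted p 0.807). It was -0.12 without replete replicate 2 and -0.39 without replete replicate 3. Without the set as a block the SE of this difference was 0.92 in place of 0.23.

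NAC014, whose protein in Arabidopsis is predicted to be anchored in a membrane, was the only NAC gene. Its signal was 7.70, 13.1 and 10.7 on P-starved replicates 1 to 3 and 21.2, 10.2 and 12.0 on the replete ones. All arrays but replete replicate 1 lay between 7.70 and 13.1, and the groups overlapped. In the first set the log2 difference was -0.65 and in the second 0.04, so the value of -0.19 over all arrays came from the first pair alone. Its interval was -0.65 to 0.27 (limma's adjusted p 0.816).

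**Figure D2:**
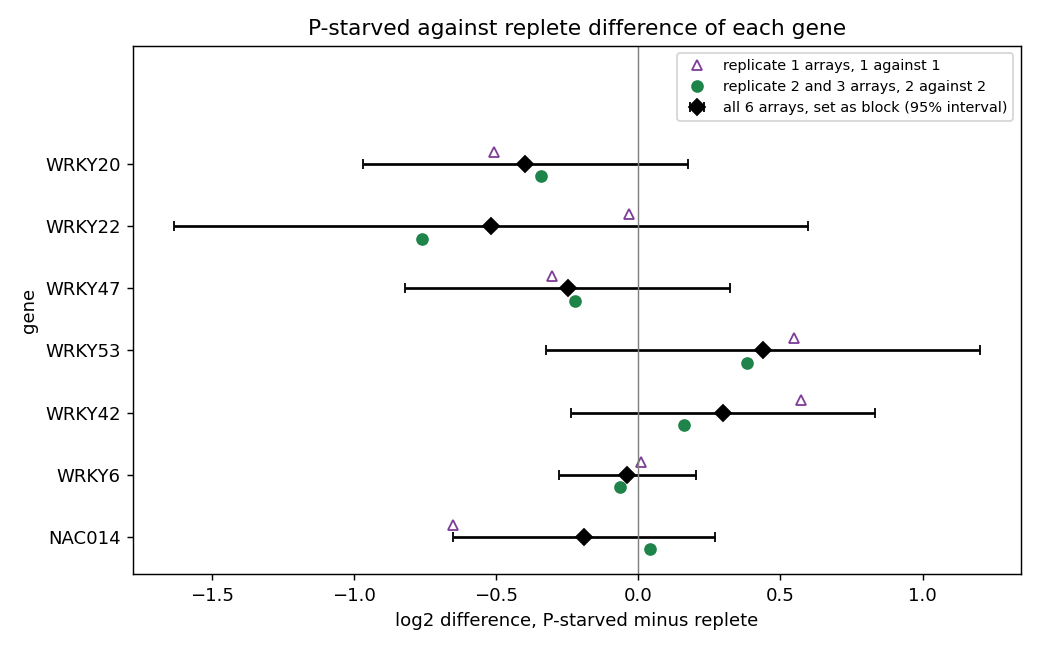
Log2 difference, P-starved minus replete, of each gene: black diamonds with 95% intervals over all 6 arrays (limma, processing set as a block), open triangles for the replicate 1 arrays and green circles for the replicate 2 and 3 arrays. Every interval holds 0, and the widest is that of WRKY22, from -1.63 to 0.60.

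The 6 WRKY genes did not share a direction. Over all arrays 2 of 6 had a higher value in P-starved shoots, against 52.6% of all probe sets, and the median log2 difference was -0.14, against 0.02 for all probe sets. In the first set 3 of 6 were higher (52% of all probe sets) and the WRKY median was -0.01, while the second set had 2 of 6 higher (53.9%) and a WRKY median of -0.14. Without replete replicate 3 the median over all arrays was 0.0004, with 3 of 6 higher. The median size of a WRKY difference, whatever its sign, was 0.41 in the first set and 0.28 in the second, and that of all probe sets 0.27 and 0.25. NAC014 had a size of 0.65 and 0.04 in the same sets, so it was above the WRKY median in the first and below it in the second. With 1 NAC gene, a difference between the 2 families could not be tested.

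None of the 7 had P-starved and replete arrays without overlap over all 6 arrays, where 2.33% of all probe sets were higher and 1.92% lower without overlap. On the 4 arrays of replicates 2 and 3 none was without overlap either, where 23.2% of all probe sets were higher and 16.1% lower in this way. The difference had opposite signs in the 2 sets for 2 of 7 genes, NAC014 and WRKY6, against 47.9% of all probe sets. Whether a gene's difference itself changed between the sets was tested as the interaction of group and set. The first set has a single array per group, so the SE of an interaction rests on the spread of the replicate 2 and 3 arrays and limma's moderation. It does not measure how the difference of the first set would vary. For NAC014 the difference in the second set was above that in the first by 0.69 ± 0.19, the only member with an unadjusted p under 0.05, which 9.94% of all probe sets had, and limma's adjusted p was 0.398. The interaction of WRKY22 was -0.73 ± 1.01 and that of WRKY42 -0.41 ± 0.48, while the remaining 4 lay between -0.17 and 0.17. Adjusted p was between 0.889 and 0.982 for the 6 WRKY genes, and limma called 0 of the 19578 probe sets.

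**Figure D3:**
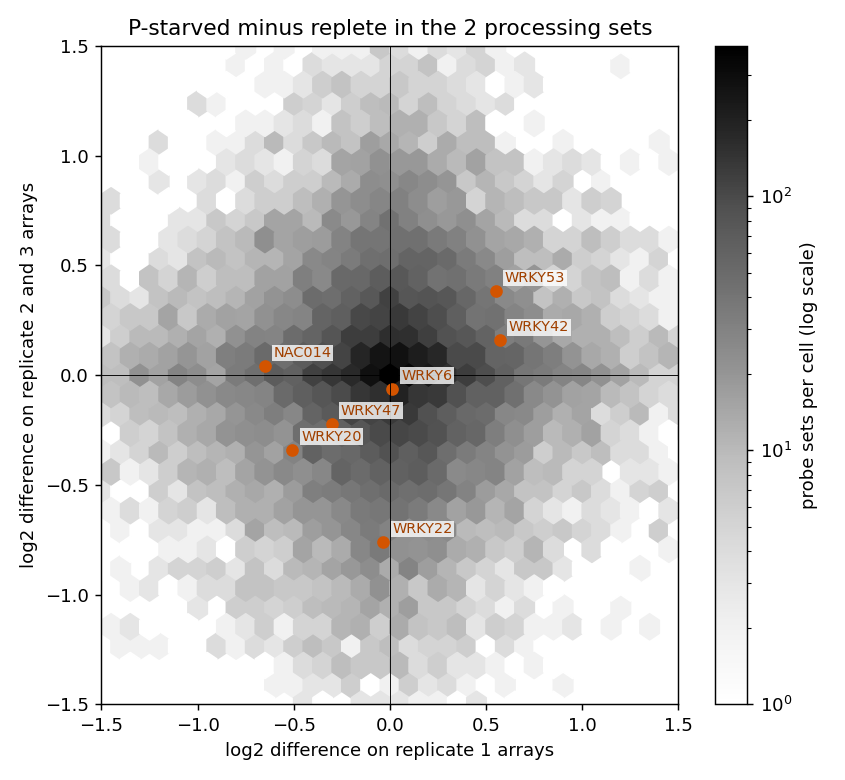
Log2 difference, P-starved minus replete, on the replicate 1 arrays (horizontal) against the replicate 2 and 3 arrays (vertical); grey cells count all tested probe sets on a log scale, without the most extreme ones, and orange points are the 7 genes. WRKY53 and WRKY42 lie above 0 in both sets, WRKY20, WRKY47 and WRKY22 below 0 in both, and NAC014 at -0.65 and 0.04, all within the cloud of the other probe sets.

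The median of the WRKY genes was higher on the replicate 1 arrays, as was the median of all probe sets. Each array was scaled to the same trimmed mean over the probe sets it lists, which differ between the sets. Scaled over the shared ones, all probe sets had a median log2 difference, second minus first set, of -0.21 in place of -0.25. The median WRKY signal was 62.9 and 52.2 on the P-starved and replete replicate 1 arrays, and 7.45 and 11.7 on the P-starved and 8.45 and 16.0 on the replete arrays of replicates 2 and 3. NAC014 lay below the WRKY median on both replicate 1 arrays, by 1.73 on the log2 scale in P-starved and 0.82 in replete shoots. On the other 4 arrays the WRKY median minus NAC014 ran from -0.32 to 0.15. The brightness of a probe set depends on its probes and on how well they match the Brassica transcript, so these are orders of array signals and not of transcript amounts.

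The set term of the same fit was examined after the signals had been seen. WRKY47 was lower on the replicate 2 and 3 arrays by a log2 difference of -2.33 ± 0.24 (limma's adjusted p 0.0014), the only call among the 7. Such calls were common, as 28.8% of all probe sets were called lower and 14.6% higher on these arrays, so a share of 1 in 7 is not a result about these genes. The other set differences were -1.30 ± 0.47 for WRKY22, -0.85 ± 0.33 for WRKY53, -0.51 ± 0.23 for WRKY42, -0.31 ± 0.10 for WRKY6, -0.11 ± 0.20 for NAC014 and 0.26 ± 0.24 for WRKY20, with adjusted p of 0.059 to 0.674. The median of all probe sets was -0.25, and 0.02 after quantile normalization, under which WRKY6 and NAC014 turned to 0.08 and 0.37 and WRKY47 stayed called at -2.0. WRKY20 was the only member above 0 under both scalings.

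The order of the members by signal was steady at its top alone. WRKY20 came first on all 6 arrays, and its percentile among all probe sets was 60.1 and 74.7 on the replicate 1 arrays and between 66.4 and 80.3 on the others. WRKY47 came second on both replicate 1 arrays and on replete replicate 2, but last on replete replicate 3. NAC014 came last on P-starved replicate 1 and behind only WRKY20 and WRKY53 on P-starved replicate 2. Below WRKY20 the order also changed between the 2 arrays of each group in the second set, so replicates did not keep these neighbours in 1 order.

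Few related genes could be read by name. A gene of these lists counts as measured only if a tested probe set carried its name. Of the 19578 tested probe sets 11428 had 1 matched gene, so the other genes may have values under unnamed probe sets. Of 4 WRKY genes known by other symbols, ZAP1 (AT2G04880, also WRKY1) was measured, with mean signals of 8.96 under P starvation and 10.1 under full supply and a log2 difference of -0.06 ± 0.15, which was -0.06 in each set. Of 35 NAC genes known mainly by other names, such as ATAF1 and CUC1, and of 15 MAP kinase cascade and VQ genes, whose products act on WRKY factors, 0 were measured. The same held for the 15 secondary wall genes, which act downstream of NAC factors.

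Of 16 leaf senescence genes 2 could be read by name and 0 passed the test. EIN3 (AT3G20770), a transcription factor of ethylene signalling, had a signal of 222 in both groups and a log2 difference of 0.002 ± 0.15, with -0.04 in the first set and 0.02 in the second. SAG29 (AT5G13170), a senescence-associated sugar transporter gene, had -0.10 ± 0.21, with -0.69 in the first set and 0.19 in the second. Its signals were 21.8 and 45.0 on the P-starved and replete replicate 1 arrays and 2.50 to 7.50 on the others. NAC014 had the same signs, but 47.9% of all probe sets had opposite signs in the 2 sets. Of 16 salicylate and defence genes 2 could be read by name and 0 passed. AT4G26120, a relative of the salicylate receptor gene NPR1, had -0.98 ± 0.54, with 0.17 in the first set and -1.55 in the second (limma's adjusted p 0.788). Its signals on the replicate 3 arrays were 3.10 and 94.2, and the difference was -0.48 without replete replicate 3 and -0.59 without P-starved replicate 3. SAG101 (AT5G14930), of immune signalling and senescence, had 0.37 ± 0.30, and like WRKY53 it was above 0 in both sets, at 0.52 and 0.29. Without replete replicate 2, at a signal of 1.70, it was 0.14, without P-starved replicate 2 it was 0.23, and without replete replicate 3 it was 0.64.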

How the data were processed

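The authors deposited a linear intensity per probe set, made with MAS5 per the submitters' processing notes. Version, probe set definition and masking: not given in the sources used here. A 2% trimmed mean of 100 was found on every array over its listed probe sets. Each array was scaled to exactly this mean, the 64 control probe sets were left out, and log2(signal + 16) was taken for the 19578 probe sets that every array lists. Between 21.8% and 33.9% of these lay under 16 on an array.

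Names came from the platform's gene table (13513 with 1 gene, 503 with several, the others unnamed here), of which 13436 with 1 gene matched Arabidopsis gene names (TAIR10.1). No sequences or coordinates are given.

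The group test was limma 3.58.1, run in R 4.3.3 (lmFit, eBayes with a trend on mean level), with the processing set as a block. It was two-sided, with Benjamini-Hochberg adjustment over all probe sets and a threshold of 0.05. Intervals are 95% intervals of this fit, SDs are over 3 arrays, and so few arrays limit the precision. The code was tested on simulated data with the residual spread of these arrays. There it called 12 of 100 changes of 1 log2 unit and 46 of 100 changes of 2 log2 units. A lack of calls therefore does not show that nothing changed. The block was chosen because an earlier treatment of these data with group as the only term held the set difference in its spread; the median SE over all probe sets is 0.26 with it and 0.52 without. The members, the gene lists and most alternatives were chosen with earlier results of these data known. The rule for named genes took WRKY53, the 4 brightest and the 4 of smallest p per direction in each family, which covers all 7 members, and from each list the 2 genes of smallest p.

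Deviations from the group means of same-numbered arrays correlated with r of 0.839, 0.551 and 0.530 for replicates 1 to 3. Arrays numbered 2 and 3 of different groups correlated about as well, at 0.524 and 0.533, and replicate 1 against these at -0.683 to -0.662. Deviations from a group mean cancel over the arrays of the group, so the signs of the replicate 1 values follow from the values among replicates 2 and 3. The correlations followed the processing sets and do not show that the numbers pair the samples of the second set. The group test had the processing set as its block and not the replicate number.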

Additional observations from a re-analysis of the deposited data

How the results depend on the processing

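The results were recomputed under 11 alternatives besides leaving out each of the 6 arrays in turn. No probe set and no member was called by limma under any that could be tested. The number called is 0 also without each array in turn. The replicate block, which takes 1 more term than the set block, again gave 0 called in either direction and changed no call; 1003 probe sets then had an unadjusted p under 0.05. WRKY20, WRKY53, WRKY42, WRKY22 and WRKY47 kept the sign of their difference wherever they were tested or measured. Leaving out either replicate 1 array leaves the replicate 2 and 3 arrays alone to measure it. Over the alternatives other than leaving out an array, the difference of WRKY53 ran from 0.20 to 0.68 and that of WRKY22 from -0.76 to -0.03. Only WRKY20 lay among the brighter 50% of the probe sets. There the median WRKY difference was thus its own, -0.40, with 0 higher values and 0 members called between the processing sets. Leaving out 1 array gave a median WRKY difference of -0.14 to 0.0004 and 2 to 3 of 6 WRKY genes higher. NAC014 was at 0.0414 on the replicate 2 and 3 arrays, and at -0.29 to 0.0414 without 1 array. On the replicate 1 arrays alone the sign turned for WRKY6 (0.0108), PSBY (-0.0885), EIN3 (-0.0422) and AT4G26120 (0.17), on the others for SAG29 (0.19), and under quantile normalization for EIN3 (-0.0158). Without 1 array the difference ran from -0.0928 to 0.0302 for WRKY6, from -0.23 to 0.19 for SAG29, from -0.0684 to 0.0596 for EIN3 and from -0.19 to 0.0703 for ZAP1. The cause of these turns was not tested. The set difference of WRKY47 stayed called at -3.25 to -1.21, and the interaction of NAC014 stayed uncalled at 0.26 to 1.18, over alternatives of scaling, offset and trend added after seeing the data. Signals under 16, which most members had, limit what these arrays can show of them.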
